A study of Mus musculus with 2 samples.

Results

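Cycling plasmablasts are antibody-secreting cells of the B lineage that still divide. Here they were 472 of the 25660 cell barcodes of 2 single-cell libraries of the mouse gut lamina propria, 226 in the library CD163_NC and 246 in the library CD163_FL. A barcode was a member when it held at least 3000 unique molecular identifiers (UMIs, each standing for 1 captured RNA molecule), when mitochondrial genes gave at most 10% of its UMIs, when 11 immunoglobulin genes (Igha, Ighm, Ighg1, Ighg2b, Ighg2c, Ighg3, Igkc, Iglc1, Iglc2, Iglc3 and Jchain) gave at least 20%, and when it held at least 1 UMI of Mzb1 and at least 3 of Mki67 and Top2a together. Members were thus chosen by their own immunoglobulin, Mzb1, Mki67 and Top2a counts. The same barcodes with fewer than 3 UMIs of Mki67 and Top2a, 1382 in CD163_NC and 1416 in CD163_FL, are called non-cycling plasma cells. The groups are CD163_NC and CD163_FL, with 1 library each. Both libraries hold CD45+ cells of the lamina propria, and the extract protocol names the colon. The series title speaks of wild-type mice and of mice deficient in CD163+ macrophages, but no label ties a library to either, so genotype, strain, age and number of animals are not assigned here. With 1 library per group no test was possible, every interval covers counting error only, and each comparison of CD163_FL with CD163_NC compares these libraries, not the conditions.

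B cells that meet antigen in gut lymphoid tissue switch their antibody class, mostly to IgA, enter the blood as plasmablasts and home to the lamina propria. There the transcription factors Blimp-1 (Prdm1), Irf4 and Xbp1 set up the secretory endoplasmic reticulum (ER), and division ends as the plasma cell matures. Mki67 encodes the proliferation antigen Ki-67, Top2a the DNA topoisomerase that untangles chromosomes before mitosis, and Mzb1 an ER cofactor of antibody assembly.

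Of the label's 4 markers, Mki67 and Mzb1 belong to the rule and cannot check it, while Fkbp11 and Pole2 lie outside it. Levels are given as CPM, here the UMIs of a gene per 1000000 non-immunoglobulin UMIs, both summed over the cells of a group. Mki67 was at 421 CPM in the cycling and 19.5 in the non-cycling cells of CD163_NC, and at 481 and 22.5 in CD163_FL, which the rule itself sets. Mzb1 was at 3413 and 2798 CPM in CD163_NC and at 2696 and 2474 in CD163_FL, against 24.9 and 15.1 in 2306 and 4837 reference T cells (barcodes with Cd3 UMIs, no B cell marker UMIs and under 20% immunoglobulin UMIs). Fkbp11, an ER peptidyl-prolyl isomerase of secretory cells, was at 368 CPM in the cycling and 292 in the non-cycling cells of CD163_NC. In CD163_FL it was at 286 and 209, and the T cells were at 3.06 and 2.04. Pole2, a subunit of the DNA polymerase that copies the leading strand, was at 475 and 287 CPM in CD163_NC and at 316 and 184 in CD163_FL, with T cells at 20.6 and 12.3. Pole2 therefore stood above the T cells also in plasma cells outside the cycling gate, and did not by itself mark division. Free RNA is present in both libraries: Jchain was found in 93.8% and 92.6% of the reference T cells, and Igha and Igkc in all of them, so that a single immunoglobulin UMI does not mark a plasma cell here.

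CD163_NC held 94729872 UMIs in 10390 barcodes and CD163_FL 131306539 in 15270. The libraries share 49 barcode sequences, of which 2 are cycling plasmablasts of CD163_NC and 0 of CD163_FL. Scrublet, a doublet caller, called 11 of the 226 cycling plasmablasts of CD163_NC (4.87%) and 39 of the 246 of CD163_FL (15.9%), against 4.78% and 9.89% of the non-cycling plasma cells; called barcodes were kept. Markers of other cell types were more often present in cycling cells, which are also deeper. At least 5 UMIs of the 9 T cell markers were held by 19.0% and 19.1% of cycling and by 11.3% and 10.1% of non-cycling cells of CD163_NC and CD163_FL. For the 9 macrophage and monocyte markers these shares were 22.1% and 15.0% against 9.48% and 6.36%, and for the 7 epithelial markers 18.6% and 19.5% against 5.07% and 4.24%. In CPM, the summed T cell markers stood at 335 and 532 in cycling and at 409 and 355 in non-cycling cells. Neutrophil markers stood at 4409 CPM in the cycling cells of CD163_NC, with a median cell at 88.1 and the highest at 198819, and at 3.42 in those of CD163_FL. The part that these RNAs have in the results was not tested, and values without barcodes that carry them are given where they differ.

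Cycling cells were a like share of the plasma cells in both libraries, and a smaller share of all immune cells in CD163_FL. They were 14.1% of the plasma cell gate of CD163_NC (226 of 1608; exact binomial 95% interval 12.4 to 15.9) and 14.8% of that of CD163_FL (246 of 1662; 13.1 to 16.6). The ratio of these shares was 1.05 (0.891 to 1.24), so that at this depth no difference was detectable. Of all barcodes passing the UMI and mitochondrial limits they were 2.69% and 1.98%, a ratio of 0.738 (0.618 to 0.883). The whole plasma cell gate had a like ratio, 0.701, at 19.1% and 13.4%. Among the barcodes of every kind with at least 3 UMIs of Mki67 and Top2a, cycling plasmablasts were 226 of 964 (23.4%) in CD163_NC and 246 of 1617 (15.2%) in CD163_FL. The thresholds set these shares: 97 and 95 plasma cells lay just below at exactly 2 UMIs, and 30 and 33 just inside at exactly 3. Just below the immunoglobulin limit, at 18 to under 20%, lay 29 and 23 otherwise matching barcodes, and just above it, at 20 to under 22%, lay 21 and 18. Leaving out barcodes with at least 2 UMIs of Cd3e, Cd3d, Cd3g, Lyz2, C1qa, Epcam and Krt8 brought the cycling share to 10.1% and 7.44%, and an immunoglobulin minimum of 40% brought it to 3.41% and 5.22%.

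The cycling cells held more RNA molecules than the non-cycling ones, and the surplus was not immunoglobulin. Median UMIs per cell were 25054 in cycling and 17773.5 in non-cycling cells of CD163_NC, and 26633 and 17641.5 in CD163_FL. Median immunoglobulin UMIs were 7473.5 and 8192 in CD163_NC, and 8157.5 and 7904.5 in CD163_FL. The remaining UMIs were 16972.5 and 8919 in CD163_NC and 17569 and 8994 in CD163_FL. Immunoglobulin accordingly took a median 30.2% and 30.9% of UMIs in cycling cells and 46.3% and 46.8% in non-cycling cells. Deeper cells also pass a fixed count of 3 Mki67 and Top2a UMIs more easily. With every cell thinned to 3000 UMIs and a threshold of 1 UMI, the cycling share was 15.1% in CD163_NC and 15.2% in CD163_FL.

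**Figure D1:**
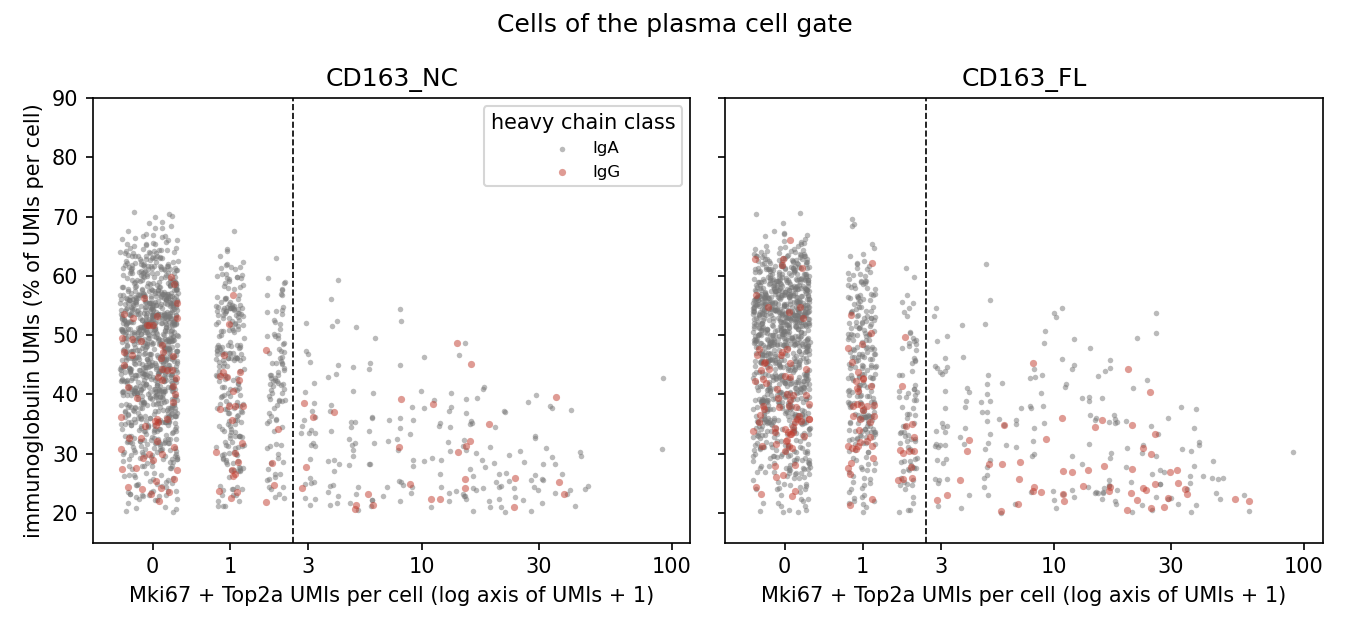
Immunoglobulin share of UMIs (percent, vertical axis) against Mki67 plus Top2a UMIs plus 1 (log axis, points jittered sideways) for each plasma gate cell of CD163_NC and CD163_FL, with IgA cells in grey, IgG cells in red and the 18 cells of other classes not drawn; the dashed line is the threshold of 3 UMIs. Median immunoglobulin was 47.5% and 49.0% in cells with 0 UMIs and 28.2% and 27.2% in cells with 12 or more.

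The immunoglobulin share was lower at higher counts of Mki67 and Top2a on either side of the threshold. In CD163_NC its median was 47.5% at 0 UMIs, 41.9% at 2, 33.5% at 3 and 28.2% at 12 or more, and in CD163_FL 49.0%, 34.7%, 33.8% and 27.2%. It did not go down at every step: in CD163_NC it was 33.8% at 4 UMIs, and in CD163_FL 33.5% at 4 and 34.8% at 5 to 11. The lowest and highest bins hold 1027 and 106 cells in CD163_NC and 1030 and 124 in CD163_FL. The summed plasma cell identity genes went from 19899 to 14540 CPM in CD163_NC and from 17201 to 12632 in CD163_FL. The G2 and mitosis genes went from 861 to 7529 CPM and from 896 to 6461, and the S phase genes from 1073 to 3942 and from 974 to 3647. Cells at exactly 3 UMIs, the lowest count inside the gate, lay between these bins: their S phase sum was 1973 CPM in CD163_NC and 1586 in CD163_FL, and their G2 and mitosis sum was 1659 and 1219. Cells at exactly 2 UMIs, just outside the gate, had S phase sums of 1263 and 1359 CPM. Their G2 and mitosis sums were 1055 and 1377, so that in CD163_FL this sum was higher just outside the gate than just inside.

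**Figure D2:**
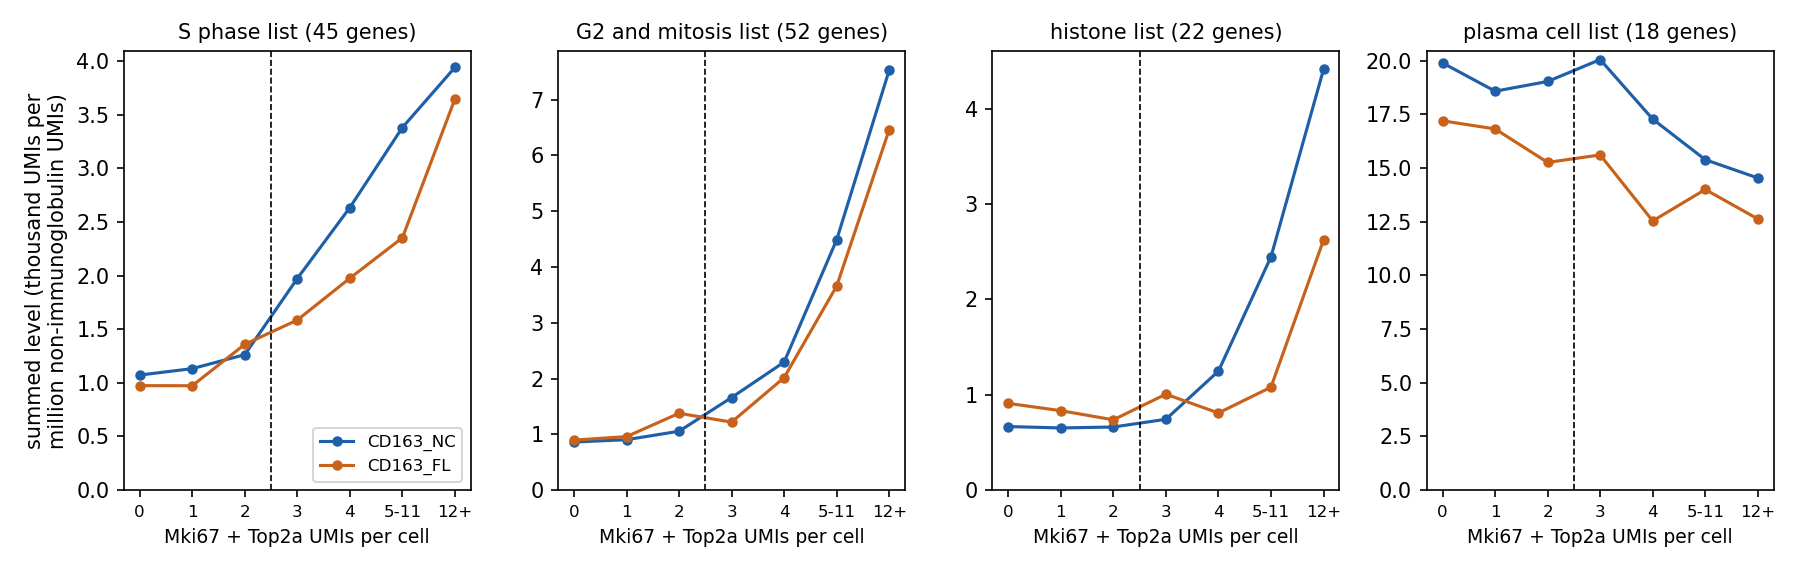
Summed CPM of the S phase, G2 and mitosis, histone and plasma cell identity lists (vertical axis) in cells binned by Mki67 plus Top2a UMIs (horizontal axis), for each library. The G2 and mitosis sum reached 7529 and 6461 at 12 or more UMIs, while the plasma cell identity sum ended at 14540 and 12632.

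The rule separates cells by proliferation genes, so the ratios of cycling to non-cycling cells that follow describe the gate and support nothing. A gene was measured when both gates of a library together held at least 20 of its UMIs. Of 12477 genes measured in CD163_NC, 6.81% were at least 2-fold higher and 6.81% at least 2-fold lower in cycling cells, and of 12321 in CD163_FL 6.39% and 6.08%. The all-gene median log2 ratio was -0.03 and 0.02. Scaling to all UMIs in place of non-immunoglobulin UMIs adds 0.35 in CD163_NC and 0.33 in CD163_FL to every log2 ratio, and moves the medians to 0.32 and 0.35. It also moves the counts, from 850 higher and 850 lower genes to 1487 and 510 in CD163_NC (50% to 74.5% higher), and from 787 and 749 to 1421 and 426 in CD163_FL (51.2% to 76.9%). Ratios below are on the non-immunoglobulin scale, and a list whose median changes sign on the other scale is named as such. Levels are 3' tag counts and are compared between cells, not between genes.

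S phase genes, which copy DNA, were 2-fold higher for 37 of 45 measured members in CD163_NC and 36 of 44 in CD163_FL, with a list median log2 ratio of 2.47 and 2.35. Rrm2, the ribonucleotide reductase subunit that supplies deoxynucleotides, was at 164 CPM in cycling and 6.89 in non-cycling cells of CD163_NC (log2 4.57), and at 135 and 9.50 in CD163_FL (3.83). Mcm6, part of the replicative helicase, was at 126 and 36.9 (1.77; 95% interval 1.59 to 1.95) and at 131 and 42.7 (1.61; 1.45 to 1.78). Pcna, the sliding clamp of DNA polymerases, was at 323 and 126 (1.35) and at 324 and 130 (1.32). Pcna had a smaller ratio than Rrm2 in both libraries. Nasp, a histone chaperone, had log2 ratios of 0.80 and 1.09, Pole2 of 0.73 and 0.78, and Slbp, which binds the stem-loop of histone mRNA, of 0.43 and 0.30. Across the list the ratios ran from -0.18 to 5.70 in CD163_NC and from -0.56 to 4.28 in CD163_FL.

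Genes of G2 and mitosis had larger ratios: 50 of 51 measured members were 2-fold higher in CD163_NC and 48 of 50 in CD163_FL, with medians of 4.24 and 3.88. Ube2c, the ubiquitin-conjugating enzyme of the anaphase-promoting complex, was at 304 CPM in cycling and 4.49 in non-cycling cells of CD163_NC (6.08; 5.70 to 6.48), and at 248 and 5.80 in CD163_FL (5.42; 5.09 to 5.76). Cdk1, the kinase that drives entry into mitosis, was at 116 and 3.22 (5.17) and at 107 and 2.97 (5.17). Hmgb2, a chromatin protein, was at 1183 and 155 (2.93) and at 1045 and 230.3 (2.18). The members with the lowest ratios among the abundant ones also work outside mitosis: Smc4, a condensin subunit, had log2 ratios of 2.27 and 2.10, Lbr, the lamin B receptor, of 1.29 and 1.26, Anp32e, a chaperone of the histone variant H2A.Z, of 1.06 and 1.19, and Tubb4b, a beta-tubulin, of 1.02 and 0.89.

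Promoters of 3 genes are shown, 1 each from the G2 and mitosis, S phase and ER folding lists. They were chosen because these lists held different short motifs. Each sequence is the 250 bases before the RefSeq start (GRCm38.p6), read 5′ to 3′ on the gene's strand. Capitals mark matches on either strand of TTTGAA or TTCGAA (the cell cycle homology region), TTTCCCGC or TTTGGCGC (E2F-type), CCAAT (the NF-Y box) and the ER stress element (CCAAT and, after 9 bases of any kind, CCACG, so that it contains a CCAAT match).
Ube2c (G2 and mitosis; chr2:164769679-164769928, plus strand): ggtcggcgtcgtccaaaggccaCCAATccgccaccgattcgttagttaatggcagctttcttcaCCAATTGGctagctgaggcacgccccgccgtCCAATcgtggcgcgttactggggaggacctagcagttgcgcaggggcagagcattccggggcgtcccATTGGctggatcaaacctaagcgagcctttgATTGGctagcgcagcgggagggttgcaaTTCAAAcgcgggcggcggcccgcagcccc
Mcm6 (S phase; chr1:128359706-128359955, minus strand): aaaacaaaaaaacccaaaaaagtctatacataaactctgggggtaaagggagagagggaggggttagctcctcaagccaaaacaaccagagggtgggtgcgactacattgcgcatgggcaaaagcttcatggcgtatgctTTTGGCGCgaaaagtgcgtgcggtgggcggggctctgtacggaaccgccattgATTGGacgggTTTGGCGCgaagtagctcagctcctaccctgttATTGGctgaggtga
Hspa5 (ER chaperone; chr2:34771840-34772089, plus strand): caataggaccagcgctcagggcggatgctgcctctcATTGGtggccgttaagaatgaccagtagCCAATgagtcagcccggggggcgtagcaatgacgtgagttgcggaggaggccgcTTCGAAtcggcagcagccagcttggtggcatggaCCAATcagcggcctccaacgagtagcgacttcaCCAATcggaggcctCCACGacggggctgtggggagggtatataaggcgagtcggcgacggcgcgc

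TTTGAA or TTCGAA was present in 18 of 44 G2 and mitosis promoters (40.9%), in 7 of 34 S phase promoters (20.6%) and in 2 of 20 ER folding promoters (10%), against 19.6% of all 27025 promoters. The E2F-type motifs were in 9 of 34 S phase promoters (26.5%), 2 of 44 G2 and mitosis promoters (4.55%) and 1.51% of all. CCAAT was in 34 of 44 G2 and mitosis promoters (77.3%), 23 of 34 S phase promoters (67.6%), 19 of 20 ER folding promoters (95%) and 37.5% of all. The ER stress element was in 7 of 20 ER folding promoters (35%), in 0 of the S phase and of the G2 and mitosis promoters, and in 0.13% of all. A match describes letters in this window and says nothing of a factor's binding. The shares describe gene lists and reference sequence, and measure nothing in these cells. Pole2, Pcna, Nasp and Rrm2, S phase genes with more UMIs in cycling cells than Mcm6, had no E2F-type match.

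Regulators of cycle entry were mixed. Of 25 measured cyclins, kinases, inhibitors and E2F factors, 12 were 2-fold higher in CD163_NC and 11 in CD163_FL, with medians of 0.97 and 0.92. The abundant regulators of G1 differed little between cycling and non-cycling cells. Ccnd2, a D-type cyclin, was at 176 and 213 CPM in CD163_NC (-0.27) and at 189 and 212 in CD163_FL (-0.17), and its kinase partner Cdk6 was at 97.6 and 112 (-0.20) and at 198 and 217 (-0.13). Rb1, the retinoblastoma protein that Cdk6 inactivates, was at 87.4 and 78.6 (0.15) and at 138 and 124 (0.16). Cdkn1b, the inhibitor p27, had log2 ratios of -0.06 and -0.25, and Myc of 0.30 and -0.22. Among the regulators above 2-fold were E2f8, an E2F repressor (5.26 and 4.93), and Foxm1, the factor that drives mitotic genes (4.14 and 3.8). Both were chosen after their values were seen.

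Histone genes, nucleotide synthesis and ribosome assembly followed in decreasing size. Of 22 histone genes of the replication-dependent clusters, 17 were 2-fold higher in CD163_NC and 15 in CD163_FL, with medians of 1.93 and 2.04. Hist1h2ap was at 1171 CPM in cycling and 72.4 in non-cycling cells of CD163_NC (4.02) and at 502 and 31.03 in CD163_FL (4.01). Hist1h2ae was at 745 and 33.6 (4.47) and at 337 and 19.6 (4.11). Other histone genes did not follow: Hist1h1c, a linker histone, was at 119 and 151 (-0.34) and at 276 and 360 (-0.38), Hist1h2bc had log2 ratios of 0.15 and -0.72, and Hist1h4i of 0.49 and 0.25. Near-identical histone genes can share reads, so the split between members is uncertain. Of 20 nucleotide synthesis genes 9 and 7 were 2-fold higher (medians 0.89 and 0.73), with Dut, which removes dUTP, at 166 and 36.8 CPM (2.18) and at 115 and 27.1 (2.08). Shmt2 and Mthfd2, mitochondrial one-carbon enzymes, had log2 ratios of 1.16 and 0.76 and of 0.83 and 0.46, and Gmps and Adss, of purine synthesis, of 0.43 and 0.35 and of -0.10 and -0.33. Of 16 ribosome assembly genes 1 passed 2-fold in each library, Nop58 in CD163_NC (1.02) and Nhp2 in CD163_FL (1.21), with medians of 0.56 and 0.45. Npm1, nucleophosmin, was at 790 and 465 CPM (0.77) and at 660 and 419 (0.66), and Ncl, nucleolin, at 518 and 346 (0.58) and at 460 and 333 (0.47).

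Genes, list members included, were ranked by the smaller of their ratios in the libraries, among 426 that were higher in both with an interval beyond 1.5-fold and at least 50 UMIs in the higher gate of each. Mitochondrial, ribosomal protein, sex-linked (Xist, Tsix and Y-linked) and T cell receptor segment genes and gene models without a proper name were left out. The 12 first were Nuf2, Ska1, Esco2, Hist1h3c, Aunip, Neil3, Hmmr, Kif18b, Ckap2l, Ube2c, Pbk and Ccna2. Nuf2 and Ska1 attach kinetochores to microtubules: Ska1 was at 32.5 CPM in cycling and 0.30 in non-cycling cells of CD163_NC (6.76). Esco2, the acetyltransferase that sets sister chromatid cohesion in S phase, was at 32.0 and 0.450 in CD163_NC (6.15) and at 24.4 and 0.218 in CD163_FL, where the non-cycling cells held 3 UMIs (6.81; 5.23 to 9.11). Neil3, a glycosylase that repairs oxidised bases and crosslinks at replication forks, was at 33.0 and 0.150 in CD163_NC, where the non-cycling cells held 2 UMIs (7.78; 5.90 to 10.8), and at 31.9 and 0.580 in CD163_FL (5.78). Hmmr, a spindle protein, was at 84.9 and 1.72 (5.62) and at 82.8 and 1.16 (6.16). In both libraries 508 of 11889 measured genes were 2-fold higher in cycling cells (4.27%) and 240 were 2-fold lower (2.02%).

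Plasma cell identity was present in cycling cells at somewhat lower levels. None of the 18 identity genes was 2-fold higher in either library and 1 was 2-fold lower, in CD163_NC, with medians of -0.33 and -0.27; scaled to all UMIs these medians were 0.02 and 0.06. Sdc1, the surface proteoglycan CD138 of mature plasma cells, was that gene, at 240 CPM in cycling and 503 in non-cycling cells (-1.07; -1.17 to -0.97), and in CD163_FL it was at 263 and 443 (-0.75). Xbp1, the factor of the secretory program, was at 1791 and 2794 (-0.64) and at 2082 and 2754 (-0.40). Irf4 and Prdm1 had log2 ratios of -0.64 and -0.26 and of -0.36 and -0.29. Txndc5, an ER disulfide isomerase, was at 1532 and 2258 (-0.56) and at 1556 and 2146 (-0.46), and Edem1, of ER-associated degradation, had log2 ratios of -0.30 and -0.24. Sec11c, the catalytic subunit of signal peptidase, was even, at 1516 and 1507 (0.01) and at 1672 and 1659.8 (0.01). Ly6c2, a surface protein of mouse plasma cells, differed more in CD163_FL, at 1757 and 3217 (-0.87), than in CD163_NC, at 5664 and 6546 (-0.21). Irf4, Prdm1 and Sdc1 were named after their values were seen.

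Survival genes were 2-fold higher or lower in 0 of 15 members, with medians of -0.44 and -0.25, the second of which is 0.09 on the all-UMI scale. Tnfrsf13b, the receptor TACI for BAFF and APRIL, was at 206 CPM in cycling and 360 in non-cycling cells of CD163_NC (-0.80) and at 238 and 326 in CD163_FL (-0.45). Tnfrsf17, the APRIL receptor BCMA that keeps long-lived plasma cells alive, had log2 ratios of -0.85 and -0.56; it was named after its values were seen. Mcl1, the anti-apoptotic protein on which plasma cells depend, was at 464 and 690 (-0.57) and at 623 and 794 (-0.35), and Cd28 was at 336 and 455 (-0.44) and at 550 and 652 (-0.25). Bcl2l11, the pro-apoptotic Bim, was at 292 and 414 (-0.50) and at 602 and 759 (-0.33), and the kinase Pim1 had log2 ratios of -0.18 and -0.25. Pro- and anti-apoptotic members were thus both lower in cycling cells on this scale.

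No ER gene passed 2-fold. Of 24 folding and stress genes 0 passed either way (medians -0.08 and -0.09, and 0.27 and 0.24 on the all-UMI scale), and of 24 translocation and secretion genes 0 did (0.17 and 0.10). The named members lay on both sides of 0. Atf6, an ER stress sensor, was at 887 and 1321 CPM (-0.57) and at 1146 and 1629 (-0.51), and Herpud1, of ER-associated degradation, at 433 and 692 (-0.68) and at 1051 and 1328 (-0.34). The chaperone Hspa5 (BiP), whose promoter is shown above, was at 1699 and 1998 (-0.23) and at 2615 and 2858 (-0.13). Hsp90b1 (GRP94) was at 4527 and 3942 (0.20) and at 5902 and 5731 (0.04), and Manf, a secreted ER stress protein, at 1133 and 887 (0.35) and at 1185 and 957 (0.31). Sec61b, of the translocation channel, was at 2042 and 1753 (0.22) and at 1671 and 1374 (0.28), while Ssr4, of the translocon-associated complex, was at 1324 and 1678 (-0.34) and at 1038 and 1232 (-0.25). Ssr2, of the same complex, and Rpn1, of the oligosaccharyltransferase, had log2 ratios of 0.96 and 0.76 and of 0.70 and 0.66; this pair was named after its values were seen.

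**Figure D3:**
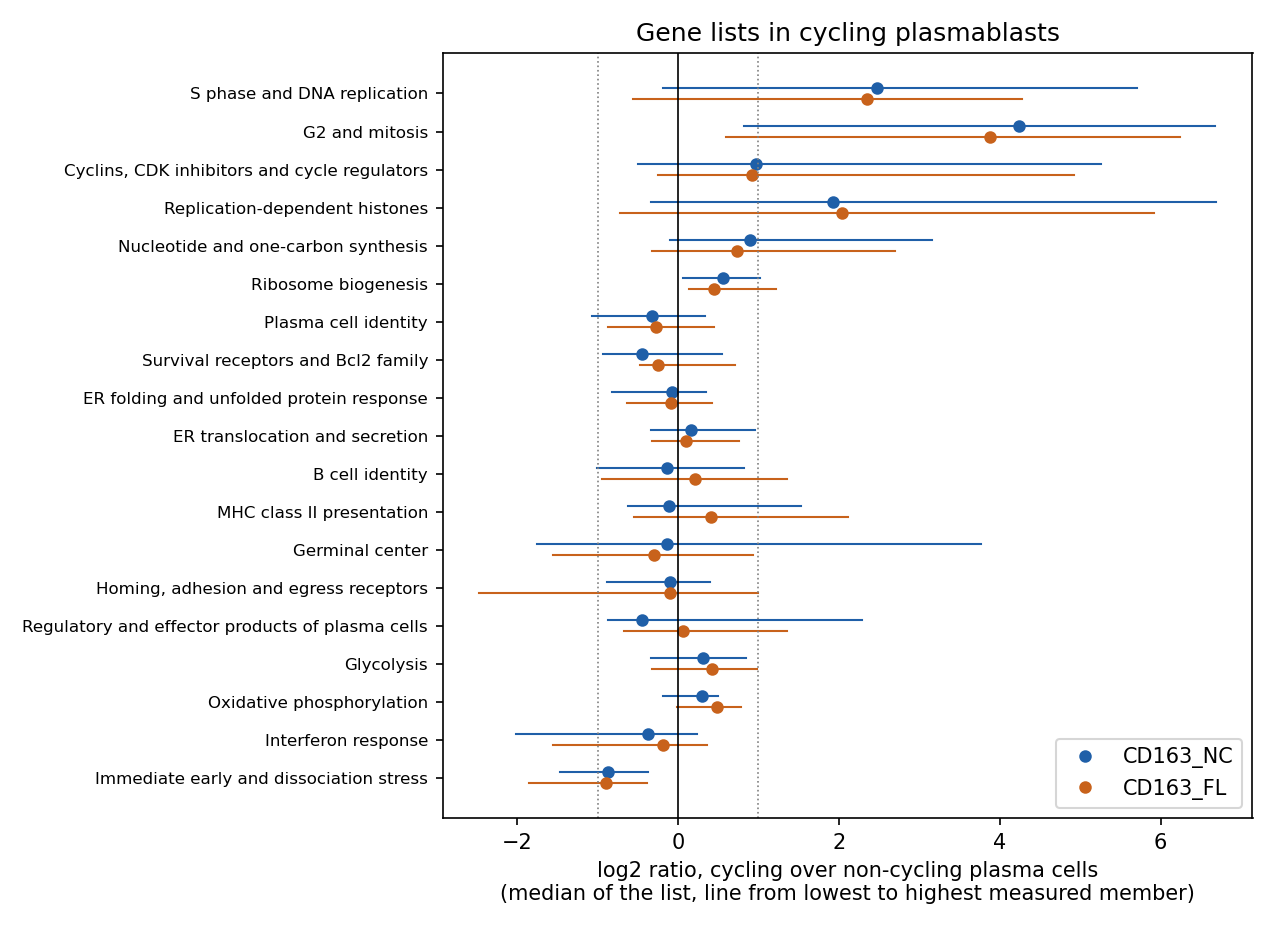
Median log2 ratio of cycling to non-cycling cells (horizontal axis, from CPM over non-immunoglobulin UMIs) for 19 gene lists in CD163_NC and CD163_FL, with a line from the lowest to the highest member. The G2 and mitosis list has medians of 4.24 and 3.88, and the immediate early list has the lowest, -0.87 and -0.89.

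Cycling plasmablasts did not hold a B cell program above that of the non-cycling cells as a whole, and class II antigen presentation genes went both ways. Of the B cell identity genes 0 were 2-fold higher and 1 of 18 was lower in CD163_NC, and 2 of 14 were higher and 0 lower in CD163_FL (medians -0.14 and 0.21; the first is 0.21 on the all-UMI scale). The higher genes in CD163_FL were Pax5 (1.36) and Bank1 (1.23), and the lower gene in CD163_NC was Cd79a. Cd79a, the signalling chain of the B cell receptor, was at 284 CPM in cycling and 572 in non-cycling cells of CD163_NC (-1.01) and at 229 and 442 in CD163_FL (-0.95), while its partner Cd79b had log2 ratios of -0.29 and -0.17. Bach2, a repressor of the plasma cell fate, was at 345 and 439 (-0.35) and at 750 and 915 (-0.29). Of 11 class II genes 1 was 2-fold higher in CD163_NC and 2 in CD163_FL (medians -0.11 and 0.41; the first is 0.24 on the all-UMI scale). These were Ciita, the class II transactivator (1.53, on 31 UMIs), and H2-DMb2 and H2-Oa (2.12 and 1.06, on 25 and 12). Over all genes, 6.81% were 2-fold higher in CD163_NC and 6.39% in CD163_FL. H2-Aa, a class II chain, was at 195 and 135 (0.53) and at 229 and 125 (0.88), and H2-Ab1, its partner, at 315 and 279 (0.17) and at 335 and 252 (0.41). The invariant chain Cd74 went the other way, at 2137 and 3285 (-0.62) and at 2224 and 3262 (-0.55). Summed, the class II genes were lower in cycling cells, at 3119 and 4199 CPM in CD163_NC and at 3230 and 4027 in CD163_FL. Macrophage markers, which come with class II genes in macrophages, were at 483 and 165 CPM in cycling and at 262 and 177 in non-cycling cells; their part in these values was not tested.

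Germinal center genes passed 2-fold both ways in CD163_NC and only downward in CD163_FL. Over all genes 6.81% were higher and 6.81% lower in CD163_NC, and 6.39% and 6.08% in CD163_FL. Of 11 germinal center genes measured in CD163_NC 2 were 2-fold higher and 1 lower, and of 9 in CD163_FL 0 were higher and 3 lower. The list medians were -0.14 and -0.30, or 0.21 and 0.03 on the all-UMI scale. The higher genes were Rgs13 (3.77, on 46 UMIs in cycling cells) and Mybl1 (1.67, on 40), and the lower ones Basp1 and, in CD163_FL, Fas and S1pr2 (-1.0). The most abundant member, Basp1, was at 145 CPM in cycling and 491 in non-cycling cells of CD163_NC (-1.76; -1.88 to -1.64) and at 215 and 631 in CD163_FL (-1.55; -1.65 to -1.46). Fas was at 29.8 and 41.9 (-0.49) and at 24.0 and 55.6 (-1.21).

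Homing genes were largely alike in cycling and non-cycling cells. None of 21 passed 2-fold in CD163_NC and 2 of 20 were lower in CD163_FL (medians -0.10 and -0.10, or 0.25 and 0.23 on the all-UMI scale). Of the lower genes, Ccr6 had 2 UMIs in cycling cells. Ccr10, the receptor that brings IgA cells to mucosae, was at 244 and 184 CPM (0.40; 0.29 to 0.51) and at 194 and 190.2 (0.03; -0.08 to 0.14). Thinned to 3000 UMIs per cell, a Ccr10 UMI was in 20.4% and 16.3% of cycling, 16.1% and 16.7% of non-cycling cells, and 0.260% and 0.0413% of reference T cells. Itga4, a chain of the gut-homing integrin, had log2 ratios of -0.05 and -0.16, and Cd44 of -0.21 and -0.45. Klf2, a factor of quiescence and of tissue egress, was at 391.5 and 722 (-0.88) and at 226 and 431 (-0.93).

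Products that plasma cells are known to secrete or display varied by library. Of 9 measured, 1 was 2-fold higher in CD163_NC and 2 in CD163_FL, with medians of -0.44 and 0.07. The higher genes were Csf2 (2.29, on 24 UMIs) in CD163_NC, and Ebi3 (1.33, on 63) and Gzmb in CD163_FL. Cd274, the ligand PD-L1, was at 361 and 510 CPM (-0.50) and at 806 and 1288 (-0.68). Gzmb, granzyme B, was at 53.5 and 74.5 in CD163_NC (-0.48) and at 216 and 84.5 in CD163_FL (1.35), where the highest cell held 21.1% of the cycling UMIs. Il10 was at 51.7 and 70.4 (-0.44) and at 58.0 and 39.5 (0.55). The summed T cell markers, whose cells also express Gzmb and Il10, had the same order, 335 and 409 CPM in CD163_NC and 532 and 355 in CD163_FL, and their part was not tested.

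Energy metabolism was slightly above the all-gene median. Of 14 glycolysis and 19 oxidative phosphorylation genes 0 passed 2-fold, with medians of 0.31 and 0.42 and of 0.30 and 0.48. Gapdh had log2 ratios of 0.43 and 0.71, and Cycs, cytochrome c, of 0.49 and 0.78.

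Of the 19 lists other than markers of other cells, that of immediate early and dissociation stress genes was lowest, with medians of -0.87 and -0.89, negative on both scales; 4 of 16 were 2-fold lower in CD163_NC, 6 in CD163_FL and 0 were higher. The 6 epithelial markers measured had medians of -1.50 and -0.43. Fos, Fosb, Egr1 and Dusp1 were lower in both, and Junb and Hspa1b in CD163_FL. Fos was at 735 CPM in cycling and 1771 in non-cycling cells of CD163_NC (-1.27; -1.32 to -1.21) and at 206 and 741 in CD163_FL (-1.85; -1.95 to -1.76). Fosb was at 763 and 2024 (-1.41) and at 430.2 and 1310.2 (-1.61), Jun at 1246 and 2446 (-0.97) and at 665 and 1229 (-0.89), and Klf6 had log2 ratios of -0.68 and -0.76. Jund, the most abundant member, was at 2663 and 4981 (-0.90) and at 2486 and 3241 (-0.38). Interferon response genes were 2-fold lower for 3 of 16 and 2 of 15 members (medians -0.38 and -0.18, the second 0.15 on the all-UMI scale). These were Ifit1 (9 and 0 UMIs in cycling cells), Ifit3 (5 UMIs in CD163_NC), Rsad2 (-1.14 in CD163_NC) and Irf7 (-1.0 in CD163_FL). Bst2, an antiviral membrane tether, was at 1355 and 2057 (-0.60) and at 740 and 1049 (-0.50). By contrast, Ifi27l2a, at 5207 and 6177 (-0.25) and 671 and 619 (0.12), and Isg15, at 221 and 288 (-0.38) and 96.9 and 82.4 (0.23), differed in sign between the libraries.

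Of the genes open to the ranking above, list members included, 123 were lower in cycling cells of both libraries by the same rule. The 12 with the lowest ratios were Il1rapl2, Il17a, Il23r, Mogat1, Atp6v1c2, Cobl, Zfp467, Hspb1, Trim80, Slpi, Kcnmb4os2 and Tmem150a. Of these, Il17a and Il23r in CD163_FL had ratios of -2.36 and -2.07, and of 1.64 and 0.87 without barcodes holding UMIs of other cell types. With a threshold of 2 Mki67 and Top2a UMIs, Il23r in CD163_NC went from -2.38 to 0.34 and Hspb1 in CD163_FL from -1.92 to 0.16. Slpi, the secretory leukocyte protease inhibitor, was at 356 CPM in cycling and 1448 in non-cycling cells of CD163_NC (-2.03) and at 425 and 1487 in CD163_FL (-1.81), with 13.1% and 16.7% of the cycling UMIs in the highest cell. Atp6v1c2, a subunit of the vacuolar proton pump, was at 2.44 and 10.5 (-2.10) and at 2.57 and 14.6 (-2.51). Zfp467, a zinc finger protein, was at 5.86 and 25.1 (-2.10) and at 4.06 and 15.7 (-1.95). Among the 94 that also held a UMI in at least 10% of the cells of the higher gate with at most 25% in 1 cell, a limit set after the values were seen, were Tmem176a, an intracellular cation channel, at 192 and 680 (-1.83) and 233 and 699.8 (-1.58), and Egr1 at 199.7 and 552 (-1.47) and 81.1 and 279.6 (-1.79).

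The balance of S phase to G2 and mitosis genes in cycling plasmablasts had overlapping ranges in the libraries. In cells thinned to 3000 UMIs, S phase genes gave a median 37.5% of the UMIs of the S and the G2 and mitosis lists in CD163_NC (quartiles 23.5 to 56.5) and 40.9% in CD163_FL (26.3 to 52.4). Unthinned medians were 39.4% and 39.1%. The balance differed by the Mki67 and Top2a count that the rule uses, so it describes the gate. From 3 UMIs to 12 or more, the S phase sum went from 1973 to 3942 CPM in CD163_NC and from 1586 to 3647 in CD163_FL. The G2 and mitosis sum went from 1659 to 7529 and from 1219 to 6461. IgA and IgG cycling cells had medians of 37.1% and 40.0% in CD163_NC and of 40.8% and 41.2% in CD163_FL.

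Most cycling plasmablasts made IgA, and IgG cells were a larger share of the cycling than of the non-cycling cells. A cell took the heavy chain class that gave at least 50% of its heavy constant gene UMIs. IgA cells were 196 of 226 cycling cells of CD163_NC (86.7%; 81.6 to 90.9) and 189 of 246 of CD163_FL (76.8%; 71.0 to 82.0), against 93.1% and 91.1% of non-cycling cells. IgG cells were 12.4% (28 cells) and 21.1% (52 cells) of the cycling, and 6.37% and 8.62% of the non-cycling cells. Within IgG plasma cells 24.1% were cycling in CD163_NC (28 of 116; 16.7 to 33.0) and 29.9% in CD163_FL (52 of 174; 23.2 to 37.3). Within IgA plasma cells 13.2% (196 of 1483) and 12.8% (189 of 1479) were. The ratio of IgG to IgA was 1.83 (1.29 to 2.59) in CD163_NC and 2.34 (1.80 to 3.04) in CD163_FL.

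Among the IgG subclasses, Ighg2c cells were cycling in 30.4% of cases in CD163_NC (21 of 69; 19.9 to 42.7) and 33.7% in CD163_FL (31 of 92; 24.2 to 44.3). Ighg2b cells were at 17.1% (7 of 41) and 24.3% (18 of 74), with intervals that overlap those of Ighg2c. Ighg1 cells were 0 and 1 of the cycling cells and Ighg3 cells 0 and 2, and of the 8 IgM plasma cells in each library 2 and 5 were cycling. The IgG share of plasma cells went from 5.74% at 0 Mki67 and Top2a UMIs to 13.2% at 12 or more in CD163_NC, and from 6.89% to 25% in CD163_FL. The IgG cells also held less immunoglobulin than the IgA cells, with medians of 26.9% and 25.4% of UMIs against 30.4% and 32.2% in cycling cells, and of 38.0% and 36.4% against 46.9% and 48.2% in non-cycling cells. Within bands of immunoglobulin share the ratio of cycling shares, IgG to IgA, was not above 1 throughout. At 20 to under 25% it was 0.938 (0.595 to 1.48) in CD163_NC and 1.65 (1.25 to 2.17) in CD163_FL, and at 25 to under 30% it was 0.622 (0.253 to 1.53) and 1.89 (1.19 to 3.01). At 30 to under 40% it was 1.44 (0.846 to 2.45) and 0.711 (0.385 to 1.31), and at 40% or more 1.49 (0.370 to 6.03) and 1.26 (0.409 to 3.90). In CD163_FL the ratio was above 1 beyond counting error below 30% immunoglobulin, and in CD163_NC in none of the bands. Depth was alike in the cycling cells of both classes: cycling IgG and IgA cells had medians of 25056.5 and 25054 UMIs in CD163_NC and of 26743.5 and 26771 in CD163_FL. Non-cycling IgG cells were less deep than non-cycling IgA cells, with medians of 16282 and 17839 UMIs in CD163_NC and of 15823.5 and 17823.5 in CD163_FL.

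**Figure D4:**
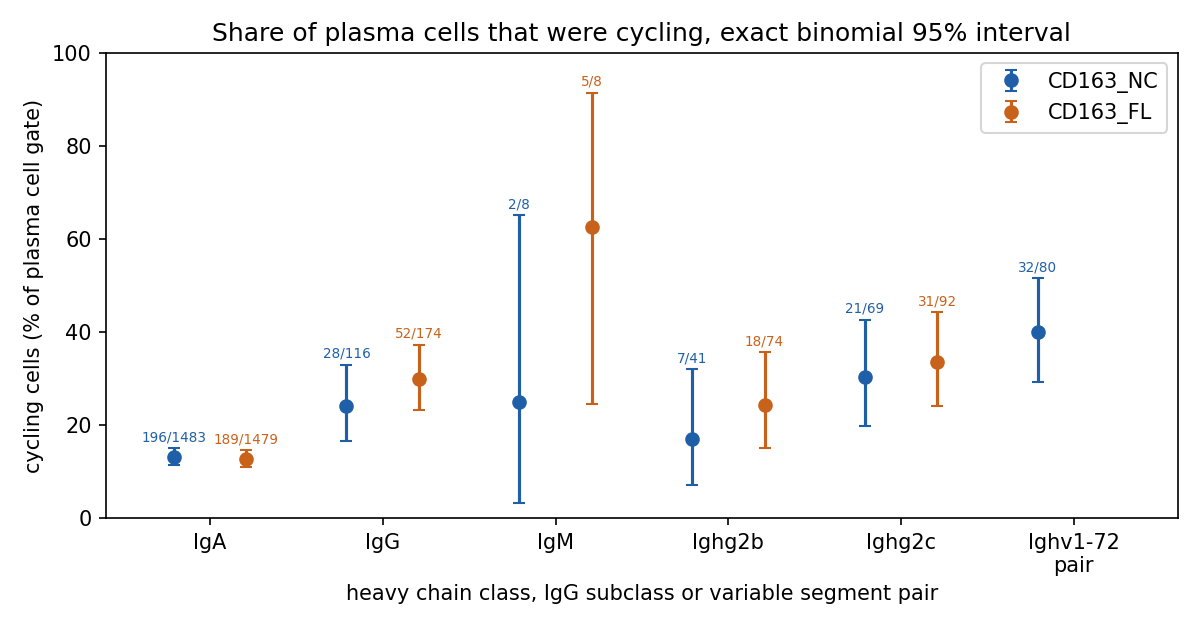
Share of plasma gate cells that were cycling (percent, vertical axis) by heavy chain class and subclass in CD163_NC and CD163_FL, and for cells with the Ighv1-72 segment pair in CD163_NC, with exact binomial 95% intervals and the cells behind each share. IgG cells were at 24.1% and 29.9%, IgA cells at 13.2% and 12.8%.

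Cycling IgG and IgA plasmablasts differed in a small set of genes. Of 9166 genes measured in both libraries, 25 were at least 2-fold higher in IgG cells of both (0.273%) and 127 at least 2-fold lower (1.39%). Hdac9, a class IIa histone deacetylase, was at 225 CPM in IgA and 54.7 in IgG cycling cells of CD163_NC (log2 IgG over IgA -2.04; -2.63 to -1.51) and at 266 and 73.1 in CD163_FL (-1.86; -2.23 to -1.52). St6galnac3, a sialyltransferase, was at 221 and 54.7 (-2.01; -2.60 to -1.48) and at 249.5 and 45.4 (-2.46; -2.92 to -2.03). Nrg2, a neuregulin, was at 126 and 17.0 (-2.90) and at 102 and 31.6 (-1.68), and Pls1, an actin-bundling plastin, at 102 and 26.4 (-1.95) and at 206 and 63.2 (-1.70). The same order stood in the non-cycling cells, which did not enter this comparison: Hdac9 was at 412 and 334 CPM in IgA and at 57.6 and 87.6 in IgG cells, and St6galnac3 at 424 and 549.9 in IgA and at 53.1 and 102 in IgG cells. Genes that T cells express were among those lower in IgG cells of both libraries. Ccl5, a chemokine, was at 360 CPM in IgA and 106 in IgG cells of CD163_NC (-1.77) and at 427 and 123 in CD163_FL (-1.80), and Tnfrsf4, the receptor OX40, had ratios of -2.17 and -2.43. Icos and Gzmb had -3.40 (-5.69 to -1.83) and -4.02 (-7.08 to -2.15) in CD163_NC, on 3 and 2 UMIs in IgG cells, and -1.70 and -1.79 in CD163_FL. Among the higher genes, Il1b and Aif1, which macrophages express, had 98.1% and 95.7% of their IgG UMIs of CD163_NC in 1 cell, and 59.3% and 72% of those of CD163_FL. Gpx3 and Psd3 were spread over more cells. Gpx3 had ratios of 1.97 and 1.65, on 17 IgG UMIs in each library, with a UMI in 28.6% and 21.2% of IgG cells. Psd3, below 2-fold, was at 347 CPM in IgG and 175 in IgA cells of CD163_NC (0.99), and at 439 and 258 in CD163_FL (0.76). Both were also higher in non-cycling IgG than IgA cells, with Psd3 at 313 and 191 in CD163_NC and 545 and 371 in CD163_FL. The part of other cells' RNA in this comparison was not tested. All genes named here were chosen after their values were seen.

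Among the variable segments, 1 pair of a heavy and a light segment was held by many cycling cells of CD163_NC. Cells with it are called a family below, with no claim of common descent. After light segments that went against the cell's light constant gene were set aside, 162 cycling cells of CD163_NC carried a heavy and a light segment, in 119 distinct pairs, of which 13 were in at least 2 cells (56 cells, 34.6%). In CD163_FL 134 cycling cells carried 108 distinct pairs, of which 18 were in at least 2 cells (44 cells, 32.8%). The largest pair held 27 cells in CD163_NC and 6 in CD163_FL. The light segment check had set aside 25 of 187 cycling cells with a pair in CD163_NC and 68 of 202 in CD163_FL. Before the check the largest pairs held 27 and 8 cells. The part of this loss in the difference between the libraries was not tested. The 27 cells paired Ighv1-72 with Igkv17-121 and were 16.7% of the cycling cells with a pair, against 4.01% of the non-cycling ones. Of all 69 plasma cells with this pair in CD163_NC 39.1% were cycling (27.6 to 51.6), and CD163_FL held 1 such cell, not cycling.

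With the near-identical light segment Igkv17-127 added, the family counted 80 plasma cells in CD163_NC, 73 of them IgA, and 32 were cycling (40.0%; 29.2 to 51.6), against 194 of 1528 other plasma cells (12.7%; 11.1 to 14.5). In CD163_FL 0 of 2 were. The family held less immunoglobulin, with a median of 32.2% against 44.9% of UMIs, at a like depth of 18707.5 and 18389 UMIs. In cells at 20 to under 30% immunoglobulin its cycling share was 66.7% (20 of 30) against 40.2% of the others, a ratio of 1.66 (1.23 to 2.24). At 30 to under 40% the ratio was 1.53 (0.887 to 2.65) and at 40% or more 3.05 (0.785 to 11.9), on 10 and 2 cycling cells. A pair held in both libraries had no such cycling share: Ighv1-81 with Igkv1-117 had 3 of 31 cells cycling in CD163_NC and 6 of 51 in CD163_FL. Segment counts come from 3' reads and can be split among near-identical segments. A shared pair is also no clone call, since, before light segments were checked, 55.1% of 187 and 61.4% of 202 cycling cells with a pair had one that non-cycling cells of the other library also held. The pair was picked because it was the largest, so its share is a description.

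Cycling plasmablasts were then set beside 374 cycling B lineage cells below the immunoglobulin limit (307 in CD163_NC, 67 in CD163_FL), which have at least 3 UMIs of a set of B cell marker genes together and none of Cd3e, Cd3d and Cd3g. The immunoglobulin limit separates them, so the ratios describe 2 gates. Of 11627 genes measured in CD163_NC 9.64% were 2-fold higher and 12.6% lower in plasmablasts, and of 10216 in CD163_FL 7.18% and 7.16%, with all-gene medians of -0.13 and -0.06. Scaling to all UMIs adds -0.47 and -0.39 to each log2 ratio here. Plasma cell identity genes were 2-fold higher for 14 of 18 in CD163_NC and 4 of 18 in CD163_FL (medians 1.55 and 0.69); the 4 were Xbp1, Sdc1, Edem2 and Ly6c2. Xbp1 was at 1791 CPM in plasmablasts and 478 in the other cycling cells of CD163_NC (1.90), and at 2082 and 965 in CD163_FL (1.11). ER folding genes had medians of 0.87 and 0.30, of which the second is -0.09 on the all-UMI scale, and Hsp90b1 was at 4527 and 1926 (1.23) and at 5902 and 5676 (0.06).

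B cell genes were lower in plasmablasts: 14 of 18 identity genes in CD163_NC and 13 in CD163_FL (medians -2.60 and -2.49), 9 and 8 of 11 class II genes (-1.72 and -1.34), and 10 and 8 of 12 germinal center genes (-2.12 and -1.57). Ebf1, a B lineage factor, was at 142 CPM in plasmablasts and 1823 in the other cycling cells of CD163_NC (-3.68) and at 71.0 and 1398 in CD163_FL (-4.30). Rgs13, a germinal center regulator of chemokine signals, was at 11.2 and 129 (-3.52) and at 1.28 and 84.4 (-6.04; -7.52 to -4.87). Homing receptors also differed, with Ccr10 at 244 and 60.4 (2.01) and 194 and 89.1 (1.12), and Cxcr4, a receptor of germinal center dark zone cells, at 44.7 and 244 (-2.45) and 73.8 and 141 (-0.94). Cycling plasmablasts also held less of the ribosome assembly and S phase genes. Ribosome assembly genes were 2-fold lower for 8 and 4 of 16 (-0.95 and -0.72), and Npm1 was at 790 and 1923 (-1.28) and at 660 and 1060.2 (-0.68). In CD163_FL the 4 were Gar1, Dkc1, Polr1b and Rrp9. S phase genes were 2-fold lower for 17 and 11 of 45 (-0.88 and -0.72), and Pcna was at 323 and 534 (-0.73) and 324 and 479 (-0.56). G2 and mitosis genes were 2-fold lower for 5 of 52 in CD163_NC and 1 of 50 in CD163_FL (-0.43 and -0.30). They were Hmgb2, Anp32e, Kif23, Cbx5 and Nek2 in CD163_NC, and Nek2 in CD163_FL. These counts did not exceed the share of all genes that were 2-fold lower, 12.6% and 7.16%. Immediate early genes had the opposite sign from the comparison with plasma cells, 2-fold higher for 11 and 8 of 16 (1.18 and 0.90).

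The cells below the limit were not of 1 kind. Split at 5% immunoglobulin, after seeing the data, they were 218 and 27 cells under 5% and 89 and 40 cells at 5 to under 20%. ER folding genes summed to 15600 and 20175 CPM in cycling plasmablasts, to 15042 and 22891 in the 5 to 20% cells and to 4230 and 3930 in the cells under 5%. Plasma cell identity genes summed to 15535 and 13292, to 9145 and 10008, and to 1944 and 1834. The B cell genes summed to 3442 and 2701, to 2817 and 1880, and to 9536 and 15709. The 5 to 20% cells therefore stood near the plasmablasts in ER folding and B cell genes, between the others in plasma cell identity, and above the plasmablasts in the S phase sum (5017 against 3490 CPM in CD163_NC, 4633 against 3004 in CD163_FL).

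Cycling plasmablasts of the libraries were compared gene by gene. Of 10960 genes measured over both cycling gates 5.11% were at least 2-fold higher in CD163_FL and 4.45% at least 2-fold lower, and of 13254 in non-cycling cells 4.71% and 5.89%. The all-gene median log2 ratio was 0.08 and 0.02. Among the lists of other cells, the 3 measured neutrophil genes had a median of -10.52, the 5 epithelial genes of -1.19 (4 of them 2-fold lower), and the 6 dendritic, mast and innate lymphoid genes of 0.97 (3 of them 2-fold higher); their part was not tested. The non-cycling value is given beside each result to show whether a difference was also present there, and the difference between the gates was not tested. In such sums over cells, fewer cells with a gene and less RNA per cell cannot be told apart.

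Interferon response genes were 2-fold lower in CD163_FL for 5 of 14 and higher for 1, with a median of -0.75; in non-cycling cells 8 of 16 were lower and 1 higher (-1.01). Ifi27l2a, a mitochondrial interferon-induced protein, was at 5207 CPM in CD163_NC and 671 in CD163_FL (-2.96; -3.01 to -2.90), and the non-cycling ratio was -3.32. The lower members were Ifi27l2a, Isg15, Ifi208, Usp18 and Rtp4, and the higher was Gbp2. Isg15, the ubiquitin-like modifier, was at 221 and 96.9 (-1.19; non-cycling -1.80), and Bst2 at 1355 and 740 (-0.87; -0.97). Tlr7, the receptor for single-stranded RNA, was at 42.2 and 6.85 (-2.63; -2.30), and Ifi213, a nucleic acid sensor of the Ifi200 family, at 32.2 and 4.71 (-2.78; -3.03). Gbp2, a guanylate-binding GTPase and the member above 2-fold, was at 34.2 and 194 (2.5, 2.24 to 2.77; 2.41). Iigp1, an interferon-inducible GTPase outside the list, was at 6.35 and 29.95 (2.24; 0.62).

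Histone genes were 2-fold lower in CD163_FL for 10 of 22 and higher for 1, with a median of -0.95; in non-cycling cells these counts were 5 and 1 of 21 (-0.51). Hist1h2ap was at 1171 and 502 CPM (-1.22; non-cycling -1.22), Hist1h2ae at 745 and 337 (-1.14; -0.78) and Hist1h1b, a linker histone, at 181 and 89.0 (-1.02; -0.46). The member above 2-fold was Hist1h1c, at 119 and 276 (1.21; 1.25). The S phase and the G2 and mitosis lists, which hold other genes of dividing cells, had medians of -0.21 and -0.24, with 1 of 45 and 1 of 52 members 2-fold lower, Cdca7 (7 UMIs in CD163_FL and 34 in CD163_NC) and Pimreg (13 and 32), and 0 higher. Pcna was at 323 and 324 (0.01), Hmgb2 at 1183 and 1045 (-0.18; 0.57) and Pole2 at 475 and 316 (-0.59; -0.64).

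Of 15 survival genes 3 were 2-fold higher in CD163_FL and 0 lower (median 0.43; non-cycling 0.30). Bcl2, the anti-apoptotic protein, was at 57.1 and 162 CPM (1.5; 1.21), Bcl2l11 at 292 and 602 (1.04; 0.87), and Il6ra, the interleukin 6 receptor, had a ratio of 1.19 (0.71). Of 24 ER folding genes 2 were 2-fold higher and 0 lower (0.37; 0.29): Herpud1 at 433 and 1051 (1.28; 0.94) and Ern1, the IRE1 sensor that splices Xbp1, at 239 and 557 (1.22; 1.39). Hspa5 and Hsp90b1 had ratios of 0.62 (0.52) and 0.38 (0.54). Of 18 identity genes 1 was higher, Prdm1 (1.03; 0.96), and 1 lower, Ly6c2, at 5664 and 1757 (-1.69; -1.02), with a list median of 0.18 (-0.01), shares near those of all genes. Of 16 B cell genes 2 were 2-fold higher and 6 lower (-0.79; -1.12); Bach2 was at 345 and 750.5 (1.12; 1.06) and Cd52, a small surface glycoprotein of lymphocytes, at 1975 and 981 (-1.01; -1.15). 

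**Figure D5:**
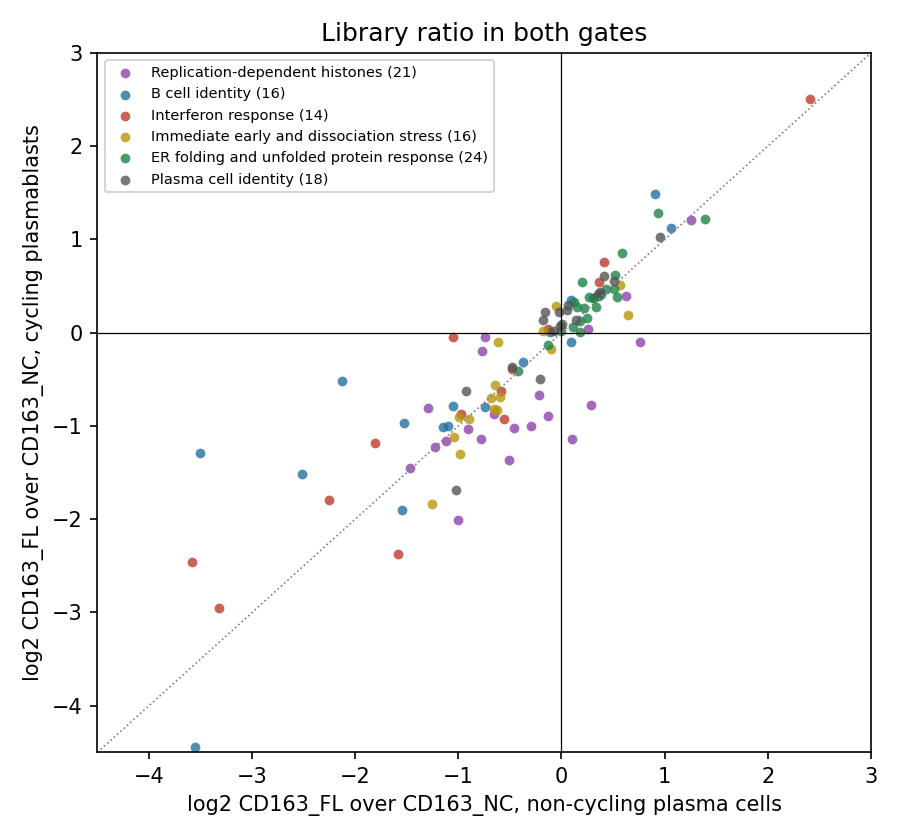
Log2 ratio of CD163_FL to CD163_NC in cycling plasmablasts (vertical axis) against the same ratio in non-cycling plasma cells (horizontal axis), 1 point per gene of 6 lists. Most points lie near the dotted diagonal, with Ifi27l2a at -2.96 and -3.32 and Gbp2 at 2.5 and 2.41.

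Further genes differed between the libraries, some by like amounts in both gates and some not. Cd274 was at 361 CPM in CD163_NC and 806 in CD163_FL (1.16; non-cycling 1.34), Ccr9, the receptor for the gut chemokine CCL25, at 25.1 and 75.5 (1.59; 1.48), and Cdk6 had a ratio of 1.02 (0.96). Fos had a ratio of -1.84 (-1.26) and Jun of -0.91 (-0.99), in a list with 0 members higher, 3 of 16 lower and a median of -0.70 (-0.64). Serpina3f, a serine protease inhibitor, was at 16.4 and 149 (3.19; 2.83 to 3.57), with a UMI in 6.64% and 35.0% of cycling cells before thinning, and its non-cycling ratio was 1.76. Serpinb9, the inhibitor of granzyme B, was at 11 and 52.6 (2.26; 1.51), and Gzmb itself at 53.5 and 216 (2.01; 0.18). Cxcr6, a chemokine receptor of tissue lymphocytes, was at 9.03 and 50.3 (2.48; 1.27). T cells also express Gzmb, Serpinb9 and Cxcr6, and the T cell list had a median of 0.66 between the cycling gates, with 2 of 9 members 2-fold higher, Trbc1 (1.66) and Cd8a (1.89); its part was not tested. Ccr9, Serpinb9 and Cxcr6, and list members above that are named for having passed 2-fold, were chosen after their values were seen.

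The rule for named genes took, as the 10 highest of 298 in CD163_FL, Palld, Saa3, Il12b, Mcpt2, Mcpt1, Mcpt8, Serpina3f, Gbp2, Iigp1 and Slc1a1, and as the 10 lowest of 119, Camp, S100a8, S100a9, Fcnb, Ptcra, Exoc3l2, Grm3, Dnah12, Hist2h3b and Ifi27l2a. Some of these ratios rested on few cells. S100a8, a neutrophil protein, had 10004 UMIs in cycling cells of CD163_NC and 7 in those of CD163_FL (-10.67), with 41.2% in 1 cell and a UMI in 128 of 226 cells; without the highest cell of each gate the ratio was -10.14. Camp, the neutrophil antimicrobial peptide, had 3096 UMIs and 1 (-11.79; -17.09 to -9.31), with 46.3% in 1 cell. On the higher side Saa3 had a ratio of 5.00 with 94.5% of its UMIs in 1 cell, and 1.23 (-0.83 to 3.78) without the highest cells. Mcpt2 and Mcpt1, mast cell proteases, had ratios of 4.73 and 4.33, and of -0.33 and 0.69 without the highest cells. With the highest cell of each gate left out, Palld held 1 UMI in CD163_FL and 0 in CD163_NC, and Il12b 0 in both. Mcpt8 then held 0 in CD163_FL and 3 in CD163_NC, so that Palld, Il12b and Mcpt8 had too few UMIs for a ratio. On the lower side Ptcra went from -4.93 to -1.51 (-4.90 to 1.10) without the highest cells. Without its highest cells Serpina3f kept a ratio of 3.40, Gbp2 of 2.60 and Iigp1 of 2.56.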

How the data were processed

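Gut lamina propria cells were measured in 2 libraries made with the 10x 3' kit V3, per the labels' protocols. The deposited values are counts of UMIs per gene and barcode, written by Cell Ranger 7.1.0 per the file headers, for 32285 genes in each library. Besides, mm10 and Seurat 4 stand in the submitters' processing notes; how reads were aligned and whether free RNA was corrected is not given in the sources used here. Cells were chosen by the thresholds of the report, and 393 immunoglobulin genes were set aside from levels. Counts were summed per gate and scaled to CPM over non-immunoglobulin UMIs (Python 3.11.15, numpy 2.4.6, scipy 1.17.1, pandas 2.3.3, matplotlib 3.10.9). Ratios have exact conditional binomial 95% intervals, shares exact binomial (Clopper-Pearson) ones, ratios of shares log-normal ones, and all cover counting error only. A gene was measured with at least 20 UMIs over both gates and called past 2-fold. Doublets were called with Scrublet in scanpy 1.11.5 on barcodes with at least 500 UMIs and 200 genes, 3.22% and 4.89% of them against 8.31% and 12.2% expected, so that doublets remain; none were removed. The scripts were tested on simulated data.

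The cells, the 25 lists (446 genes) and the tests were chosen with earlier results of these data known. Named are the 12 genes each way with the largest smaller ratio among those past 1.5-fold by interval, with at least 50 UMIs in the higher gate, in both libraries; the 10 each way between libraries, whose level also had to be at least 0.5 times that over all barcodes; and up to 5 most abundant members per list. Both rankings left out mitochondrial and ribosomal protein genes, Xist, Tsix and Y-linked genes, and immunoglobulin and T cell receptor segments. They also left out the rule's own genes and gene models (Gm with digits, Rik and accession-like names). Alternatives, with effects in the closing section, were gate thresholds, scaling, thinning, low count filters, doublets and cells with other markers. Promoter sequences are those of RefSeq, GRCm38.p6. Some results on single genes are not reported here.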

Additional observations from a re-analysis of the deposited data

Results flagged for a closer look

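For 3 genes the cycling cells stood above the non-cycling cells in one library and below them in the other; the difference between the libraries was not tested. Lyz2, lysozyme of macrophages and monocytes, had a log2 ratio of 1.71 in CD163_NC and of -1.12 in CD163_FL, with 30.9% and 28.8% of the cycling UMIs in 1 cell. Mcpt1, a mast cell protease, had -1.98 and 3.27, with 93.2% of the cycling UMIs of CD163_FL in 1 cell. Anxa1, annexin A1, had 1.58 and -1.63, with 44.4% of the cycling UMIs of CD163_NC and 68.3% of the non-cycling UMIs of CD163_FL in 1 cell.

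Outside the gate, 118 barcodes of CD163_NC and 71 of CD163_FL met every other condition at 10 to under 20% immunoglobulin UMIs. Their plasma cell identity genes summed to 9246 and 9738 CPM over non-immunoglobulin UMIs, their median Mzb1 UMIs were 71 and 46, and 15.3% and 25.4% were IgG.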

How the results depend on the processing

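No paired analysis was possible because each group holds 1 library, and no replicate could be left out. Of 142 alternative values of shares and counts 107 stayed close and 35 moved. Of the 612 other values, among them those of single named genes, 91 moved and 12 changed sign. Percent cycling in CD163_NC and CD163_FL was 20.1 and 20.5 with a threshold of 2 UMIs, 10.9 and 11.97 with 5, 3.41 and 5.22 at 40% immunoglobulin, 10.1 and 7.44 without cells holding other cell types' UMIs, and 19.3 and 17.8 at 10% immunoglobulin, which was chosen after seeing the data. At 40% immunoglobulin the IgA share was 91.2% and 94.2%, the S share 27.5% and 35.1%, the IgG to IgA ratio in CD163_FL 1.26, and the genes lower in cycling cells of CD163_NC 1289 against 850. Scaled to all UMIs, 1487 genes were higher and 510 lower in CD163_NC, and 1421 and 426 in CD163_FL. Thinned to 1000 non-immunoglobulin UMIs per cell, where fewer genes reach 20 UMIs, 539 and 499 were higher; between libraries 340 were higher and 153 lower, 69.0% higher against 53.4%. That share was 67.6% at 40% immunoglobulin, 46.7% without called doublets (484 higher, 552 lower), and 72.4% without cells holding other types' UMIs, where 309 were lower. With at least 50 UMIs per gene 433 and 369 were lower in cycling cells, and 373 higher and 240.0 lower between libraries. With at least 1 UMI the counts were 2500.0 and 4666, 2507 and 4541, and 2789 and 3103. Signs turned for Il23r (0.34, CD163_NC) and Hspb1 (0.16, CD163_FL) at a threshold of 2, Palld (-0.23) at 5, Hspb1 (0.10), Mcpt2 (-1.53) and Mcpt1 (-0.53) at 40% immunoglobulin, Il17a (1.64), Il23r (0.87), Mcpt1 (-0.27) and Ptcra (1.47) without other types' UMIs, Il23r (0.20) when thinned, and Mcpt2 (-0.33) without the highest cells. Except where fewer genes are tested, the cause was not tested.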
